A study of Oryza sativa with 2 samples.

Results

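Small heat shock proteins are chaperones that bind unfolding proteins without using ATP and hold them in a state from which ATP-driven chaperones, such as HSP70 and the ClpB disaggregase HSP101, can refold them. Plants have an unusually wide set of them, with separate classes in the cytosol and nucleus and others that are imported into mitochondria, chloroplasts and other compartments. Many are at low levels in unstressed vegetative tissue, are switched on by heat through heat stress transcription factors, and some also accumulate in seeds during later development.

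The genes described here were chosen by a rule on names. It took a symbol or synonym in the rice gene table of HSP followed by a mass of 14 to 27 kDa with a decimal. Earlier results of these data were known when the members were chosen. The rule found 22 genes. Of these, 19 had a probe set listed for a single gene, through 26 probe sets, out of 17905 genes read in all. HSP16.9C (LOC4325696), HSP18.9 (LOC4328171) and HSP19.0 (LOC4328736) had no such probe set and were not analysed here. RNA was measured on Affymetrix rice arrays in 1 group of 2 samples: endosperm of the japonica cultivar Zhonghua11, picked by hand at 2 days after pollination, before the tissue forms cell walls. The plants grew in a phytotron under days of 28 °C for 12 h in the light, followed by 22 °C for 12 h in darkness, and the labels give no heat treatment. The labels do not say whether the samples came from separate plants, or how many grains each held, so the spread between them may be technical. With 1 group, no test between conditions was possible, and the values below are levels with the spread between 2 arrays. In a dissected tissue such as this, a smaller share of expressing tissue and less RNA within that tissue cannot be told apart.

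With the lowest and highest 2% of values left out, the mean was 500.1 on both arrays. The processing scales each array on its own, so this match cannot show that the arrays were alike. Their medians were not equal, at 42.1 for the first and 33.4 for the second. The 64 control probe sets for reporters and transgenes, sequences that this rice should lack, gave the background as their 95th percentile, 52.7 on array 1 and 37.9 on array 2. A gene is called above background below only if its signal exceeded this on both arrays. The 5 genes taken here as endosperm markers were NF-YB1, SUS3, AGPS2, SWEET11 and the starch synthase gene GBSS1. Whether these genes are confined to endosperm at this stage was not tested. All 5 were above background, at mean log2 signals of 11.46 to 14.64. So were 2 of 3 markers of the seed coat and nucellus, MADS29 and MADS21, and all 4 markers of green tissue read, CAB2R, RCABP89, RBCS and OEE3. The summed signal of the maternal markers was 495.04 on array 1 and 498 on array 2, and that of the green tissue markers 3237 and 3530. Most of the latter was CAB2R (2747 and 3000), whose mean log2 signal of 11.49 lay within the range of the endosperm markers. RCABP89, RBCS and OEE3 were at 6.80 to 7.74. The meristem gene OSH1, an embryo marker, was below background on both arrays. The part of other tissues in the levels given here was not tested.

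Of the 19 small heat shock protein genes read, 11 (57.9%) exceeded background on each array, 2 on array 2 alone and 6 on neither. Across all 17905 genes, 74.1% were above background on both arrays. The median log2 level of the 19 genes, as the mean of the arrays, was 5.85, against 8.58 over all genes read. Signals of different probe sets differ in affinity, so their order is not an order of transcript amounts. The 11 genes above background ranged widely around a median log2 level of 9.47, against 9.77 over all genes above background. At the low end, HSP17.8, HSP18.6 and HSP18.8 were at most 1.97 times background on either array. By single arrays, 11 of 19 were above background on array 1 (75.6% of all genes) and 13 on array 2 (78.2%). A stricter background, the highest of the reporter probe sets (92.3 on array 1, 98.7 on array 2), left 8 of 19 genes, against 65.5% of all genes. A fixed signal of 100 also left 8, against 65.1%, and reading each gene through its brightest probe set gave 12, against 75.9%.

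**Figure D1:**
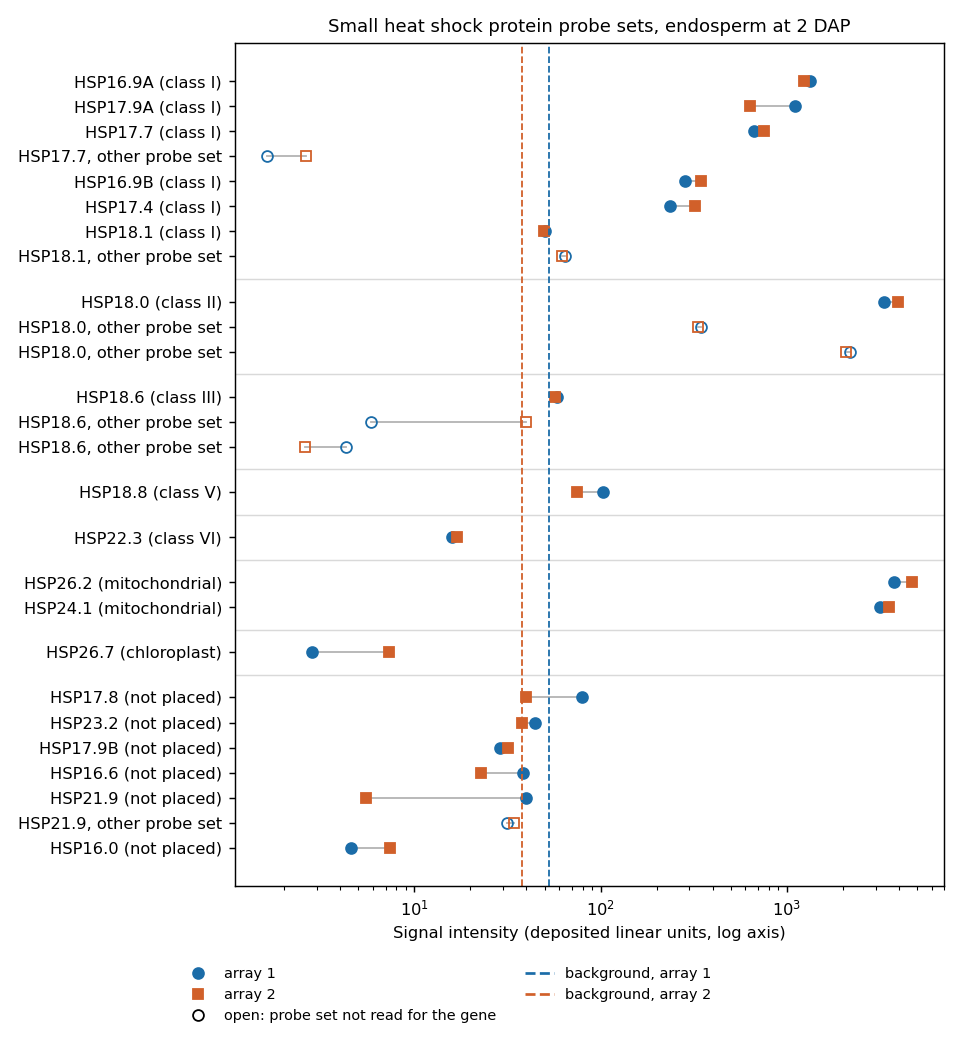
Signal intensity on a log axis for each of the 26 probe sets of the 19 small heat shock protein genes, grouped by class; circles are array 1, squares array 2, open symbols are probe sets not used for the gene's level, and dashed lines are the 2 background levels (52.7 and 37.9). The mitochondrial genes HSP26.2 and HSP24.1 and the class II gene HSP18.0 stand above a signal of 3000 on both arrays, while the chloroplast gene HSP26.7 lies below 10.

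The genes are described by the compartment or class in which the proteins are usually placed, which is background knowledge and not part of the deposited files. The mitochondrial members, which protect proteins of the mitochondrial matrix, were both far above background. HSP26.2 (LOC4340508, chromosome 6) read 3750.2 on array 1 and 4718 on array 2, or 12.04 ± 0.23 (log2, SD, n = 2). HSP24.1 (LOC4330786, chromosome 2) read 3163 and 3551, or 11.71 ± 0.12. These signals were 71.1 and 124 times background for HSP26.2, and 59.97 and 93.7 times for HSP24.1, on arrays 1 and 2. HSP26.2 was read only through a probe set whose suffix, _s_at, marks probes shared by several transcripts, so a related transcript may add to its signal.

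The chloroplast member was at the other end in signal. HSP26.7 (LOC4332237, chromosome 3), which in leaves is imported into plastids and protects the photosynthetic apparatus under heat, read 2.84 and 7.32, below background on both arrays. With 1 probe set, a low level cannot be told from probes that respond poorly, and no fold against the mitochondrial genes is given. Green tissue markers, by contrast, were above background in the same samples.

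The class II gene HSP18.0, a cytosolic member, was also far above background. HSP18.0 (LOC4325342, chromosome 1) read 3316 and 3977, or 11.83 ± 0.19 (log2, SD, n = 2), which was 62.9 and 104.9 times background. All 3 of its probe sets exceeded background on each array, but they stood apart by 10.7-fold, with mean log2 signals of 11.83, 11.05 and 8.41. The 2 probe sets not used for its level differed little between the arrays, with log2 differences, array 2 minus array 1, of -0.07 and -0.05 against 0.26 in the one used. The name HSP18.0 is also a synonym of another gene in the table, HSP18.1.

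Class I is the largest class of small heat shock proteins in the plant cytosol. Of its 7 named genes, 6 were read, and 5 of the 6 were above background on both arrays, against 74.1% of all genes. HSP16.9A (LOC4325697, chromosome 1) read 1329 and 1233, or 10.32 ± 0.08 (log2, SD, n = 2). HSP17.9A (LOC4332357, chromosome 3) read 1101 and 638, or 9.71 ± 0.56, the widest spread among the class I genes. HSP17.7 (LOC4332363, chromosome 3) read 668 and 754, or 9.47 ± 0.12. These 3 were at least 12.7 times background on each array.

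HSP16.9B (LOC4325698, chromosome 1) and HSP17.4 (LOC4332360, chromosome 3) were lower but clear of background. HSP16.9B read 285 and 346, or 8.30 ± 0.20 (log2, SD, n = 2). HSP17.4 read 235 and 320.2, or 8.10 ± 0.32. The remaining class I gene, HSP18.1 (LOC4332361, chromosome 3), lay at the background itself: 50.4 on array 1, just under the limit of 52.7, and 49.9 on array 2, over the limit of 37.9. Its other probe set read 64.4 and 62.3, above background on both arrays. Class I proteins are close in sequence, and the probe sets of HSP16.9A and HSP16.9B carry the same transcript cluster number in their names. Their signals may therefore share transcripts. The gene table also lists HSP16.9B as a synonym of the HSP16.9A gene.

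Classes III, V and VI, with 1 gene read in each, were near or below background. HSP18.6 (LOC4330933, chromosome 2), of class III, read 58.1 and 57.1, which was 1.10 and 1.51 times background. Its other 2 probe sets read 5.88 and 39.5, and 4.32 and 2.59, so only 1 of its 3 probe sets was above background on both arrays. HSP18.8 (LOC4343386, chromosome 7), of class V, read 104 and 74.7, both 1.97 times background. It was read only through an _x_at probe set, a suffix that marks probes which may cross-hybridize with other sequences. HSP22.3 (LOC4339231, chromosome 5), of class VI, read 15.9 and 16.98, below background on both.

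The members not placed in a class here were dim throughout. Of 6 read, only HSP17.8 (LOC4330496, chromosome 2) was above background on both arrays, against 74.1% of all genes. HSP17.8 read 79.0 and 39.7, and on array 2 this was 1.05 times the limit. HSP23.2 (LOC4335956, chromosome 4) read 44.2 and 37.97, against limits of 52.7 and 37.91, so it was above background on array 2 alone. HSP16.6 (LOC4325694, chromosome 1) read 38.3 and 22.8, and HSP17.9B (LOC4325695, chromosome 1) read 28.7 and 32.0. HSP21.9 (LOC4350180, chromosome 11) read 40.0 and 5.52, and HSP16.0 (LOC4340661, chromosome 6) read 4.56 and 7.37. The other probe set of HSP21.9 read 31.6 and 34.4, so the gap of over 7-fold in the first was not repeated in the second, and all 4 values were below background.

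Probe sets of one gene often disagreed. Of 26 probe sets, 14 exceeded background on each array, against 70.9% of all single-gene probe sets. Among the 5 genes with several probe sets, the range of mean log2 signals was 0.34 for HSP18.1, 1.15 for HSP21.9, 3.42 for HSP18.0, 4.11 for HSP18.6 and 8.43 for HSP17.7. The second probe set of HSP17.7 read 1.61 and 2.63, below background on both arrays, beside 668 and 754 in the first. Control probe sets at the 3′ end of rice actin, GAPDH and cyclophilin were 2.99 to 13.7 times as bright as those at the 5′ end, and where the probe sets of the small heat shock protein genes lie along their transcripts was not tested. The other 14 genes rest on 1 probe set each, so for these such a disagreement could not be seen.

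Neighbouring genes differed in signal within both runs of small heat shock protein genes along the chromosomes. On chromosome 1, 5 members follow one another among the protein-coding genes of the table: HSP16.6, HSP17.9B, HSP16.9C, HSP16.9A and HSP16.9B. The first 2 were below background on both arrays and the last 2 above it on both, with HSP16.9C between them not read. On chromosome 3, HSP17.4, HSP18.1 and HSP17.7 follow one another, and in the probe sets used the middle gene was the one at background. The other probe set of HSP18.1 read 64.4 and 62.3, above background on both arrays, and that of HSP17.7 read 1.61 and 2.63, below it. HSP17.9A lies before HSP17.4, with 4 other protein-coding genes between them. Of the genes directly beside the runs, CML16, a calmodulin-like gene next to HSP16.6, read 147 and 589.8, above background on both arrays. So were LOC4325699, next to HSP16.9B (756 and 1144), and LOC4332359, next to HSP17.4 (1237 and 1235). FBPase, next to HSP17.7, read 3.24 and 7.001, below background.

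**Figure D2:**
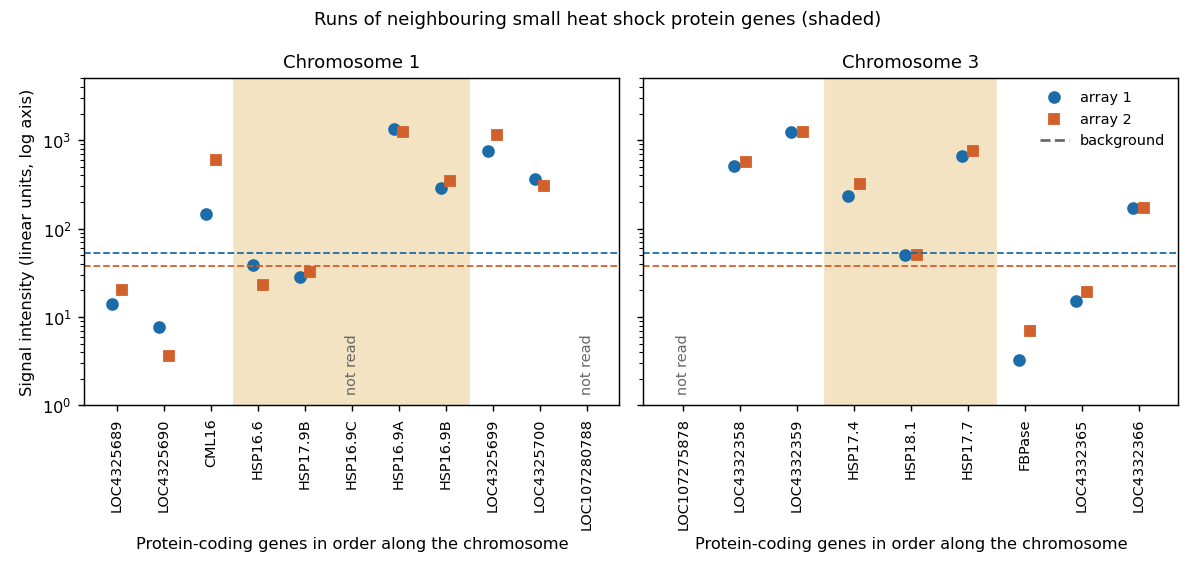
Signal intensity (log axis) of the 2 arrays for the runs of 5 genes on chromosome 1 and 3 genes on chromosome 3 (shaded) and the 3 protein-coding genes on each side, in order along the chromosome and not to scale; circles are array 1, squares array 2, dashed lines background. HSP16.6 and HSP17.9B lie below background and HSP16.9A and HSP16.9B above it. In the probe sets used, HSP18.1, at 50.4 and 49.9, lies between 2 brighter neighbours. The other probe sets of HSP18.1 (64.4 and 62.3) and HSP17.7 (1.61 and 2.63) are not drawn.

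Between the arrays, no member above background on both differed by over 2-fold, against 0.844% of the 13263 genes above background. HSP17.8 lay just under this limit, 1.99-fold higher on array 1. Over all members, dim ones included, 2 of 19 did, HSP21.9 and HSP26.7, against 12.7% of all genes read. The median log2 difference, array 2 minus array 1, of the 11 members above background was 0.17, against -0.01 over the 13263 genes. Of the 11, 6 were higher on array 2, against 47.4% of the genes above background. These 6 were HSP26.2, HSP18.0, HSP24.1, HSP17.7, HSP16.9B and HSP17.4. The others were HSP16.9A, HSP17.9A, HSP18.8, HSP17.8 and HSP18.6.

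HSP17.9A had the gap that stood furthest from genes of like signal. Its signal was 1.73-fold higher on array 1, a log2 difference of -0.79. Of the 2038 other genes with a mean log2 signal within 0.5 of its own, 8 (0.393%) differed by as much in either direction, and the SD between the arrays of these genes was 0.16. For HSP26.2, with a log2 difference of 0.33, 62 of 1528 like genes (4.06%) differed by as much. For HSP18.0, at 0.26, it was 156 of 1640 (9.51%).

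Gaps as wide as those of the remaining members above background were more common among genes of like signal. For HSP17.8, at -0.99, 11.8% of like genes differed by as much, and for HSP17.4, at 0.45, 14.8%. For the other 6 this share ran from 24.4% for HSP24.1 to 96.9% for HSP18.6. These shares describe 2 arrays and are not tests. HSP17.9A has 1 probe set, so its gap has no second reading. Near it on chromosome 3, HSP17.4 and HSP17.7 went the other way, and HSP18.1, at background, had a log2 difference of -0.01.

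**Figure D3:**
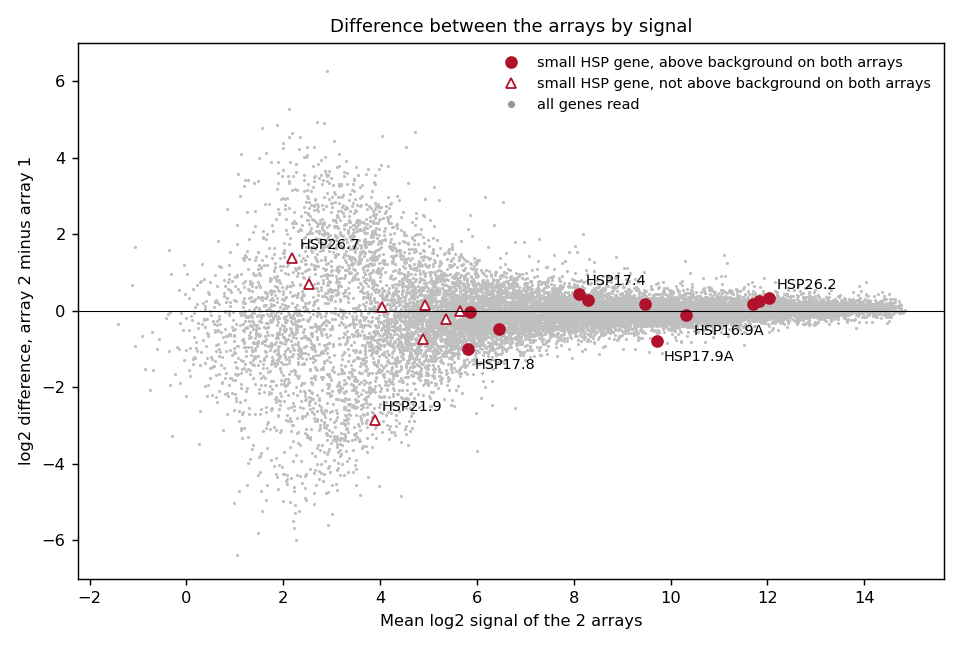
Log2 difference between the arrays (array 2 minus array 1) against the mean log2 signal of both, for all 17905 genes read (grey) and the 19 small heat shock protein genes (red, filled where above background on both arrays). Differences widen at low signal, where HSP21.9 (-2.86) and HSP26.7 (1.37) lie, and HSP17.9A (-0.79) lies at the lower edge of the genes with a similar signal.

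Heat stress transcription factors bind heat shock elements in promoters. In plants, members of class A activate transcription, while most of classes B and C lack the activation motif of class A. Of 23 such genes by name, 20 were read and 13 were above background on both arrays (65.0%, against 74.1% of all genes), with a median log2 signal of 7.72 against 8.58 over all genes. By class, 9 of 12 class A genes, 3 of 5 class B genes and 1 of 3 class C genes were above background.

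The 3 with the highest mean signal were HSFA2D (1631 and 1479), HSFA1 (1283 and 1046) and HSFA2C (926 and 843). The records of HSFA2D and HSFA2C also carry the names ARD2 and ARD1, which belong to acireductone dioxygenases of methionine recycling, so the product that their probe sets read is not certain. Their other probe sets read 32.2 and 39.0 for HSFA2D, and 165 and 188 for HSFA2C. The 3 with the lowest mean signal were HSFA2A (7.95 and 40.6), HSFB4B (30.7 and 7.98) and HSFB2B (9.74 and 2.19), none of which was above background on both arrays. HSFA2A was above it on array 2 alone.

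Of the ATP-driven chaperones, 6 genes were read by the names HSP81, HSP82, HSP90, HSP101 or CLPB, and all 6 were above background on both arrays, against 74.1% of all genes. CLPB1, the cytosolic disaggregase also named HSP101, read 587 and 518, or 9.11 ± 0.13 (log2, SD, n = 2). In the probe sets used for their level, the brightest others were HSP81-2 (21932 and 27350.1) and HSP81-1 (17919 and 18632), members of the HSP90 family, and CLPB-C (7803 and 7434), a ClpB form of the chloroplast. Probe sets of the HSP81 genes disagreed. HSP81-3, also of the HSP90 family, read 295 and 335 in the probe set used, and 79.7 and 60.9 in its other _at probe set. The remaining 3, with the suffixes _a_at, _s_at and _x_at, were far brighter. The brightest, an _s_at probe set, read 27980.3 and 26784, above HSP81-2 in mean log2 signal (14.74 against 14.58). Its name carries the same transcript cluster number as the probe set of HSP81-2, so their signals may share transcripts. The other probe set of HSP81-1 read 651 and 523. CLPB-C stood far above background in the samples in which the small chloroplast member HSP26.7 did not exceed it. CLPB-M, the mitochondrial form, read 295 and 260.03. No gene with a name starting with HSP70 or DNAJ was found in the table.

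**Figure D4:**
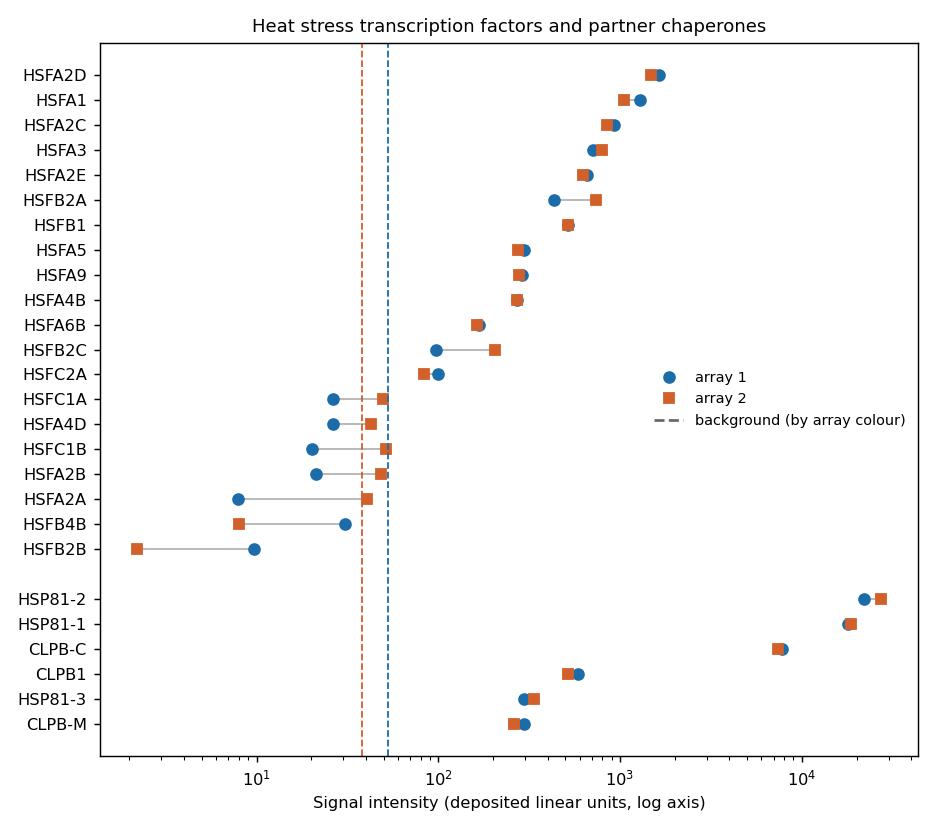
Signal intensity (log axis) on array 1 (circles) and array 2 (squares) of 20 heat stress transcription factor genes and, below them, 6 partner chaperone genes; dashed lines are the 2 background levels. The factors run from a mean log2 signal of 10.60 for HSFA2D to 2.21 for HSFB2B. The chaperones run from 14.58 for HSP81-2 to 8.11 for CLPB-M. Each gene is drawn in the probe set used for its level. HSP81-3, drawn at 8.30, had an _s_at probe set at 14.74, which may share transcripts with HSP81-2.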

How the data were processed

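RNA of 2 endosperm samples was measured, 1 Affymetrix rice array each. The authors deposited a linear signal intensity for each probe set of each array, made with MAS5 per the submitters' processing notes. Its version is not given in the sources used here. Detection calls were not used. MAS5 scales each array on its own, so a change in total RNA would not show. Precision is limited by the number of arrays.

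Values were taken as log2 with no offset. Of 57381 probe sets, 187 were controls. The platform annotation of 2016 listed 22436 probe sets with 1 gene, 95 with several, from which no gene was named, and none for 34850. Gene names came from the table of assembly ASM3414082v1, joined by gene identifier for all 17905 genes. Its coordinates were used only for gene order. For a gene with several probe sets, the level came from the one with the most specific suffix, in the order _at, _a_at, _s_at and _x_at, and among equals from the one with the highest mean; alternatives are given below. Every member was named, with the 3 brightest and 3 dimmest heat stress transcription factors, CLPB1 and the 3 brightest other chaperones. The members and lists were chosen with earlier results of these data known. The comparison with genes of like signal and the gene order were added after the values were seen. The steps were checked on simulated data. Python 3.11.15, pandas 2.3.3, NumPy 2.4.6, SciPy 1.17.1 and matplotlib 3.10.9 were used.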

Additional observations from a re-analysis of the deposited data

How the results depend on the processing

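The count of small heat shock protein genes above background, 11 of 19 as reported, stayed within 1.5 times that value under every alternative tried, from 8 to 13, and that of heat stress transcription factors, 13 of 20, ran from 11 to 18. The 18 came from array 2 alone, where they were 90% of the factors against 78.2% of all genes, so there the factors lay above the share of all genes and not below it as on both arrays (65.0% against 74.1%). The 5 factors above background on array 2 only read 40.6 to 51.3 there and 7.95 to 26.3 on array 1. The median log2 level of the 19 genes, 5.85, was 6.20 with an offset of 16 added before log2, and 9.47 over the 11 genes above background, where all such genes had 9.77; it was 5.83 on array 2 alone and 6.30 on array 1 alone. The median log2 difference between the arrays, 0.10 over the 19 genes, stayed positive, from 0.05 with the offset to 0.23 after quantile normalization. Of the 19 genes, 2 differed by over 2-fold as reported, 1 when each gene was read through its brightest probe set (11.8% of all genes), 1 with the offset (3.97%), 0 among the 11 above background, and 3 after quantile normalization (15.8%, against 12.3% of all genes, where the 2 as reported were 10.5% against 12.7%). Of the levels of single genes, those of HSP18.1 (5.99) and HSP21.9 (5.04) changed with the brightest probe set. No paired analysis was possible because the series has 1 group. Low signal limits what can be said of the 8 genes not above background on both arrays.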
